A study of Canis lupus familiaris with 10 samples.

Results

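The muscle microRNAs (miRNAs) miR-1, miR-133a, miR-133b, miR-206 and miR-499 were followed across lymph node small RNA libraries of dogs. They were taken by name, as miRNAs well known from skeletal and heart muscle, with no threshold on their values. Of these 5 miRNAs, 4 were listed among the 320 miRNAs of the count table (cfa-miR-1, cfa-miR-133b, cfa-miR-206 and cfa-miR-499). cfa-miR-133a was not analysed here, and cfa-miR-133c, a listed miRNA of the same family, is given beside the members as a related row. The filter on low counts left 247 miRNAs for testing, among them cfa-miR-1, cfa-miR-206 and cfa-miR-499 but not cfa-miR-133b.

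The nodes, kept frozen, were those of 6 dogs with diffuse large B-cell lymphoma (DLBCL, the libraries DLBCL1 to DLBCL6) and of 4 healthy dogs (Healthy2 to Healthy5), with 1 library per dog. DLBCL is an aggressive tumor of B cells that enlarges and replaces the node. The dogs with DLBCL were patients whose peripheral nodes were removed by surgery under anesthesia, whereas the healthy dogs were bred for research and were euthanized in teaching laboratories. In the study's records the healthy dogs were young females of a hound cross, and the patients were of both sexes and various breeds, with ages not given in the sources used here. Diagnosis, origin, breed, sex and way of sampling therefore cannot be told apart. In whole nodes, fewer cells of a type and less RNA per cell cannot be told apart either.

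miRNAs are short RNAs that lower the stability and translation of messenger RNAs, which they recognize mainly through the seed at their 5′ end. miR-1 and miR-206 share a seed and promote the differentiation of muscle cells. miR-1 is made in skeletal and heart muscle, and miR-206 is made in skeletal muscle and in regenerating fibers. The miR-133 miRNAs are made from the same primary transcripts as miR-1 or miR-206 and act on the proliferation of myoblasts. miR-499 lies within a myosin gene and is known from heart and slow skeletal fibers. Lymphoid cells are not a known main source of these miRNAs, and a node lies close to skeletal muscle, vessels and connective tissue.

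Gene neighbors were read from the RefSeq annotation of UU_Cfam_GSD_1.0, a canine assembly other than the one used for mapping. MIR1-2 and MIR133A lay next to each other inside MIB1. MIR206 lay next to MIR133B, and MIR1-1 next to MIR133C, with 0 listed genes between them in each case. MIR499 lay inside MYH7B, a myosin heavy chain gene. The miRNA reads of each library summed to between 10686441 and 25784861 in DLBCL and between 30432969 and 34709421 in healthy nodes. Levels are given as counts per 1000000 miRNA reads (CPM) after trimmed mean of M-values (TMM) scaling, in which the scaling factors ran from 0.507 to 2.03. Of the lymphocyte miRNAs (miR-142, miR-150 and miR-155), all 3 were listed, and their summed level ran from 8056 to 20987 CPM in DLBCL and from 10877 to 27547 CPM in healthy nodes, with miR-150 lower in DLBCL by the test described next. In the sequencing statistics of the study, DLBCL1, DLBCL2, DLBCL3 and DLBCL5 had higher base quality than DLBCL4, DLBCL6 and all 4 healthy libraries, so that only the lower base quality group of 6 libraries held both diagnoses.

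None of the muscle miRNAs passed the test between DLBCL and healthy nodes. miR-1 and miR-499 had higher mean levels in DLBCL, and miR-206 had overlapping levels with no stable direction. By TMM-scaled CPM, 3 of 6 DLBCL nodes for miR-1 and 4 of 6 for miR-499 lay above every healthy node. Without the highest library (DLBCL3 or DLBCL5), the log2 fold change by edgeR was 0.65 for miR-1 and 0.41 for miR-499. By TPM, without TMM, miR-1 ran from 38.8 to 248 in all DLBCL nodes but DLBCL4 (12.5), beside at most 27.1 in healthy nodes. miR-499 ran from 1176 to 2215 TPM in all DLBCL nodes but DLBCL3 (385), beside at most 656 TPM in healthy nodes. In the quasi-likelihood test of edgeR, adjusted by Benjamini-Hochberg across all 247 miRNAs, 0 of the 3 tested members were called (adjusted p below 0.05 with a log2 fold change above 1 or below -1), and 14 of all tested miRNAs were called (5.67%). At an unadjusted p under 0.05 the count was 0 of 3 members with edgeR, and 66 of all 247. DESeq2 and limma-voom each called 0 members, where they called 15.4% and 18.6% of all 247. On log2 TPM values, limma-trend called 0 members with either pseudocount, and 8.5% (pseudocount 1) and 9.72% (pseudocount 0.1) of all 247. With read totals in place of TMM, edgeR called 0 members and 9.31% of all. An unadjusted p under 0.05 was given to 1 member by DESeq2 and by limma-voom. It was given to 2 members by limma-trend with either pseudocount, and to 2 (miR-1 and miR-499) by edgeR with read totals. For these alternatives the share of all miRNAs at an unadjusted p under 0.05 was not counted, so the member counts have no background beside them. The log2 fold change was above 0 for all 3 tested members, beside 55.5% of all tested miRNAs, and its median was 0.95 for the 3 members and 0.13 for all tested miRNAs. None of the 3 had groups without overlap, whereas 6.88% of all tested miRNAs lay wholly higher in DLBCL.

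**Figure D1:**
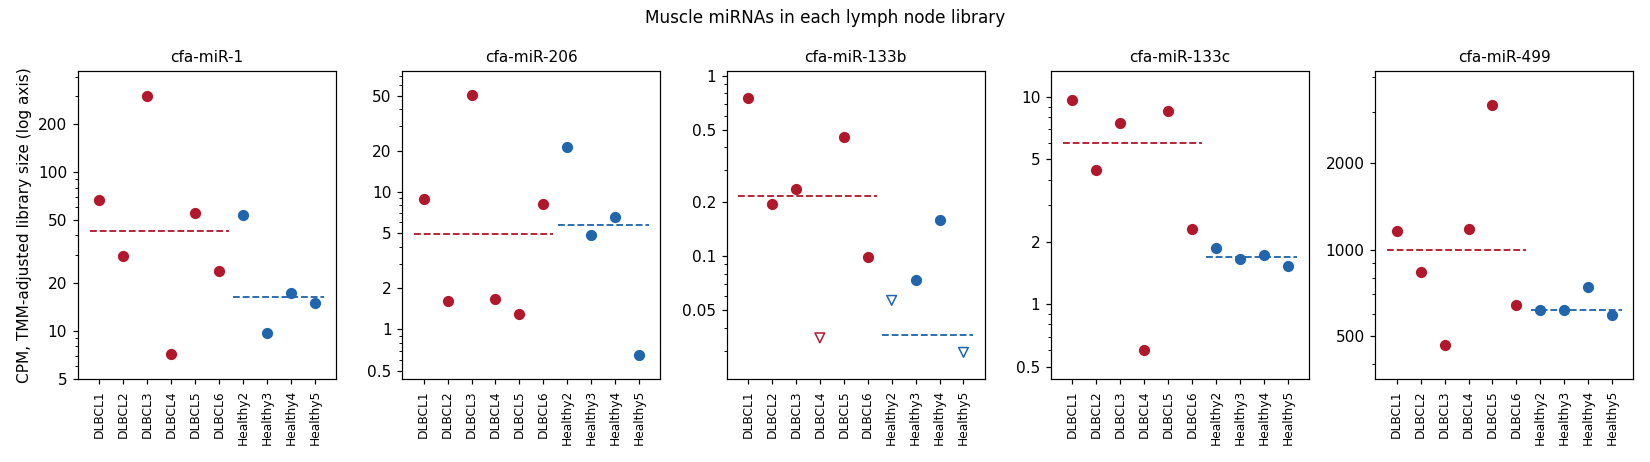
Level of each muscle miRNA in each library, in CPM with TMM-adjusted library sizes on log axes that differ between panels; filled points are libraries (red, DLBCL; blue, healthy), dashed lines are group medians, and open triangles mark 0 reads, drawn at the level of 1 read. miR-1 and miR-206 peak in DLBCL3 at 301 and 51.0 CPM, miR-499 peaks in DLBCL5 at 3172 CPM, and the healthy libraries lie close together for miR-133c and miR-499.

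The most abundant member was miR-499, the miRNA of the MYH7B gene. Its level was 1159, 836, 468, 1183, 3172 and 643 CPM in DLBCL1 to DLBCL6, and 619, 619, 744 and 591 CPM in Healthy2 to Healthy5. On this TMM scale the healthy nodes lay within a narrow band. Above it lay 4 of 6 DLBCL nodes, DLBCL6 lay inside it and DLBCL3 lay below it. By TPM the healthy nodes had 314 to 656, DLBCL3 had 385 and DLBCL6 had 1307. Mean and SD were 1243 ± 986 CPM for DLBCL (n = 6) and 644 ± 68.5 CPM for the healthy dogs (n = 4). The log2 fold change was 0.95 (SE 0.51, adjusted p = 0.239 with edgeR), and the exact two-sided permutation test of the log2 CPM over the 210 assignments gave p = 0.205. Without DLBCL5, the log2 fold change was 0.41. Within the lower base quality group it was 0.49 (SE 0.36, adjusted p = 0.414 with edgeR), and it stayed above 0 in every alternative run.

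By rank of CPM, miR-499 stood between position 29 and 64 of the 320 miRNAs in DLBCL and between 50 and 54 in healthy nodes, so it was among the well-read miRNAs of a node. A mature miRNA is read as a single short molecule, so levels need no scaling by length, although ligation efficiency can differ between miRNAs. The standard deviation of log2 CPM of miR-499 was 0.95 in DLBCL and 0.15 in healthy nodes, where the median miRNA had 1.07 and 0.54. Counted from the most variable, this put miR-499 at position 236 of 247 in healthy nodes and at 142 in DLBCL. Under TMM it was thus one of the steadiest miRNAs among the healthy dogs. The spread without TMM was not ranked, but by TPM the healthy nodes ran wider, from 314 in Healthy2 to 656 in Healthy5.

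miR-1, the main miRNA of differentiated striated muscle, came next. Its level was 66.4, 29.5, 301, 7.16, 55.6 and 23.7 CPM in DLBCL1 to DLBCL6, from 203 to 6398 reads. In Healthy2 to Healthy5 it was 53.5, 9.76, 17.4 and 15.1 CPM, from 266 to 941 reads. By TMM-scaled CPM, DLBCL3 stood apart at 4.54 times the next library and DLBCL4 was the lowest of all 10. On that scale, 3 of 6 DLBCL nodes lay above every healthy node. By TPM the lowest was Healthy3 (8.64). Mean and SD were 80.6 ± 110 CPM for DLBCL (n = 6) and 24.0 ± 19.97 CPM for the healthy dogs (n = 4). This gave a log2 fold change of 1.75 (SE 0.94, adjusted p = 0.233 with edgeR). The exact permutation test gave p = 0.295 (two-sided).

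Under TMM, the direction of miR-1 depended on which libraries entered. Without DLBCL3 the log2 fold change was 0.65. The 4 DLBCL libraries of higher base quality ran from 29.5 to 301 CPM, whereas DLBCL4 and DLBCL6 had 7.16 and 23.7 CPM, inside or below the healthy range of 9.76 to 53.5 CPM. By TPM, DLBCL6 had 48.2, above the healthy range of 8.64 to 27.1, and DLBCL4 had 12.5, inside it. Within the lower base quality group the log2 fold change was -0.64 (SE 0.77, adjusted p = 0.631 with edgeR). With read totals in place of TMM, which moved the median log2 fold change of all tested miRNAs from 0.13 to 0.82, miR-1 had 2.28 (adjusted p = 0.0823 with edgeR), or 1.46 above that median against 1.62 above it under TMM.

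miR-206, the skeletal muscle relative of miR-1, had 8.95, 1.60, 51.0, 1.66, 1.30 and 8.18 CPM in DLBCL1 to DLBCL6. In Healthy2 to Healthy5 it had 21.1, 4.84, 6.56 and 0.645 CPM. By CPM the highest library was again DLBCL3, the next was the healthy dog Healthy2 and the lowest was Healthy5, so the groups overlapped throughout. By TPM, DLBCL6 (16.6) came after DLBCL3 and before Healthy2 (10.7). Mean and SD were 12.1 ± 19.4 CPM for DLBCL (n = 6) and 8.29 ± 8.90 CPM for the healthy dogs (n = 4). The log2 fold change was 0.55 (SE 1.12, adjusted p = 0.790 with edgeR), with an exact permutation p of 0.938 (two-sided), and it was -0.88 without DLBCL3 and -0.75 within the lower base quality group.

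Among healthy nodes miR-206 was one of the most variable miRNAs. The standard deviation of its log2 CPM was 2.02, position 4 of 247, and that of miR-1 was 1.04, position 27. In DLBCL they stood at 2.03 (position 23) and 1.79 (position 36). For these miRNAs a wide spread between dogs was thus present without lymphoma. The sum of miR-1 and miR-206, the members that share a seed, had a log2 fold change of 1.70 (SE 0.98, adjusted p = 0.248 with edgeR). It was 0.39 without DLBCL3 and -0.67 within the lower base quality group.

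**Figure D2:**
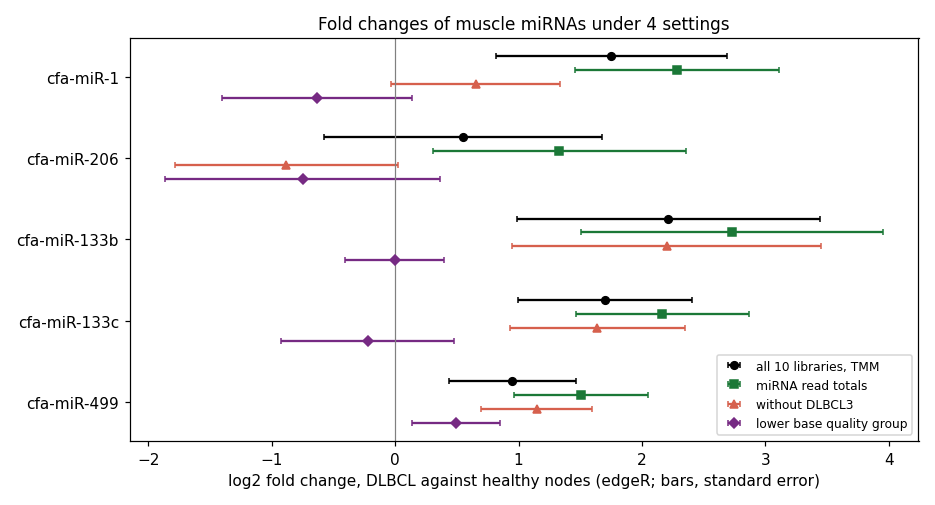
Log2 fold change of each muscle miRNA in DLBCL against healthy nodes by edgeR, with standard errors as bars, for all 10 libraries under TMM, with miRNA read totals, without DLBCL3 and within the lower base quality group (2 DLBCL, 4 healthy); miR-133b was fitted without the filter on low counts. Within the lower base quality group, fitted under TMM only, miR-1 and miR-206 lie below 0 at -0.64 and -0.75. There miR-133b and miR-133c lie near 0, and miR-499 stays above it at 0.49.

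The genes of the miR-133 family lie next to those of miR-1 and miR-206. miR-133b, the neighbor of miR-206 and the least read member, had 9, 5, 5, 0, 7 and 4 reads in DLBCL1 to DLBCL6, and 0, 2, 3 and 0 reads in Healthy2 to Healthy5. At 0 reads the level may still be up to 0.106 CPM in DLBCL4, 0.171 CPM in Healthy2 and 0.0879 CPM in Healthy5 (3 reads). Over all dogs of a group this made 30 and 5 reads, a ratio of 4.12 per effective library size (exact 95% interval 1.58 to 13.6, counting error only). The spread between dogs is not in that interval. The exact permutation test over dogs gave p = 0.10 (two-sided), and edgeR without the filter gave a log2 fold change of 2.21 (SE 1.23, adjusted p = 0.265), which depends on the prior count.

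miR-133c, the neighbor of a miR-1 gene, had 9.71, 4.46, 7.53, 0.600, 8.60 and 2.30 CPM in DLBCL1 to DLBCL6. In Healthy2 to Healthy5 it had 1.88, 1.65, 1.73 and 1.52 CPM. Here 5 of 6 DLBCL nodes lay above every healthy node, and DLBCL4 lay below all 4. The log2 fold change was 1.70 (SE 0.70, adjusted p = 0.139 with edgeR), and the exact permutation test gave p = 0.152 (two-sided). Without DLBCL4 it was 2.003 (adjusted p = 0.0453 with edgeR), past the threshold. Within the lower base quality group it was -0.22 (adjusted p = 0.858 with edgeR). The 4 DLBCL libraries of higher base quality had 4.46 to 9.71 CPM, whereas DLBCL4 and DLBCL6 had 0.600 and 2.30 CPM. The miR-133 miRNAs differ little in sequence, so reads may be divided between their rows. The sum of miR-133b and miR-133c had a log2 fold change of 1.81 (SE 0.73, adjusted p = 0.123 with edgeR). It became -0.22 within the lower base quality group. With base quality as a covariate it was also -0.22, a value that rests on the same libraries and is no separate check.

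Across libraries, miR-1 varied with miR-133c. Pearson's r of log2 CPM was 0.81 (permutation p = 0.00461, adjusted p = 0.0230 over 10 pairs) and Spearman's rho was 0.92 (permutation p = 0.00063, adjusted p = 0.00520) over all 10 libraries, and r was 0.76 without the 2 libraries farthest in miR-1. By CPM, DLBCL4 was lowest in both, and DLBCL1, DLBCL3 and DLBCL5 were the 3 highest in both. Healthy2 was low in miR-133c by CPM but lay just below DLBCL5 in miR-1 and above DLBCL2 and DLBCL6. Without DLBCL4, r was 0.745 (permutation, adjusted p = 0.0747), no longer past the threshold. Within the 6 DLBCL nodes r was 0.83 (exact permutation p = 0.0417, adjusted p = 0.208) and rho was 0.83 (exact permutation p = 0.0583, adjusted p = 0.194). Within the 6 libraries of lower base quality r was 0.69 (exact permutation p = 0.158, adjusted p = 0.528) and rho was 0.89 (exact permutation p = 0.0333, adjusted p = 0.167).

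miR-133b and miR-133c had r = 0.89 (permutation p = 0.00078, adjusted p = 0.00780) and rho = 0.90 (permutation p = 0.00104, adjusted p = 0.00520) over the 10 libraries. Within the 6 libraries of lower base quality, where miR-133b had at most 4 reads, r was 0.50 (exact permutation p = 0.342, adjusted p = 0.569). Within the 6 DLBCL nodes r was 0.95 (exact permutation p = 0.00139, the smallest the pairings can give, adjusted p = 0.0139), and with read totals in place of TMM the adjusted p there was 0.153. These were the 2 of the 10 pairs past an adjusted p of 0.05 over all libraries.

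miR-1 and miR-206 shared their highest library but not their order. Over the 10 libraries r was 0.65 (permutation p = 0.0394, adjusted p = 0.131) and rho was 0.52 (permutation p = 0.133, adjusted p = 0.332). Without DLBCL3 and DLBCL4, the libraries farthest in miR-1, r was 0.27, so the relation did not hold without them. Without DLBCL3 alone r was 0.36, and without DLBCL4 alone 0.61. Within the lower base quality group r was 0.70 (exact permutation p = 0.110, adjusted p = 0.528).

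miR-1 and miR-499 had no clear relation. Over the 10 libraries r was -0.04 (permutation p = 0.897, adjusted p = 0.897) and rho was -0.01 (permutation p = 1.0, adjusted p = 1.0). By TMM-scaled CPM, DLBCL3, highest in miR-1, was the lowest of all 10 in miR-499, and without DLBCL3 r was 0.37. By TPM the lowest in miR-499 was Healthy2 (314), with 385 in DLBCL3.

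**Figure D3:**
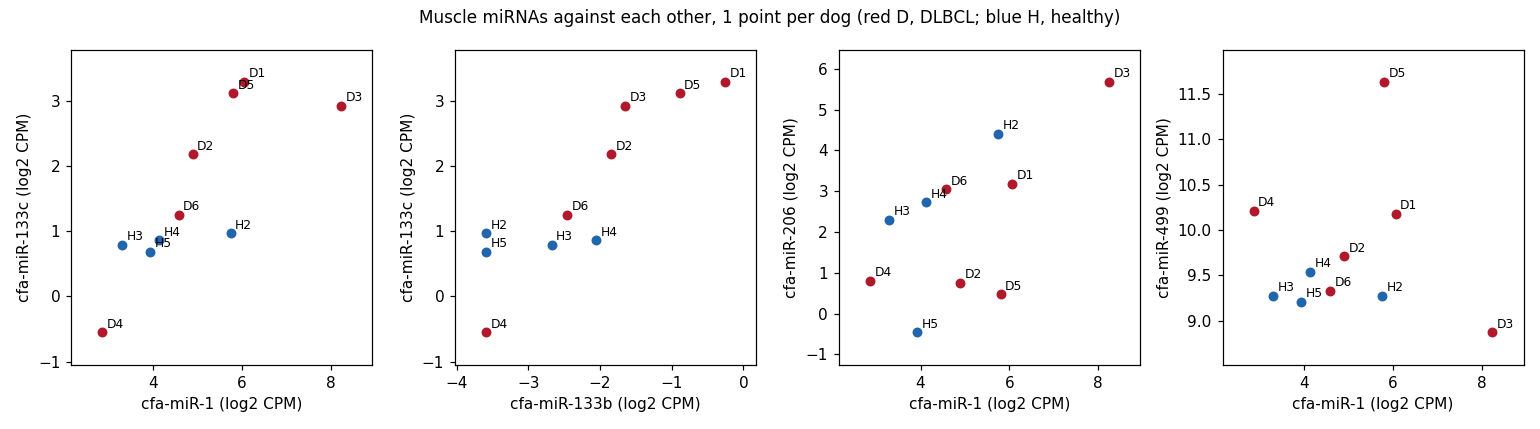
Log2 CPM of pairs of muscle miRNAs, 1 point per dog (red D, DLBCL; blue H, healthy; the number is that of the library). miR-1 rises with miR-133c (r = 0.81) and miR-133b with miR-133c (r = 0.89), whereas miR-206 is scattered at middle levels of miR-1. On this TMM-scaled axis DLBCL3 combines the highest miR-1 with the lowest miR-499.

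Read ratios within a library, which do not depend on library scaling, showed how unlike the mixtures were. Per miR-1 read there were 1.55 miR-499 reads in DLBCL3 and 165 in DLBCL4, with a median of 27.7 in DLBCL. In healthy nodes the ratio ran from 11.6 in Healthy2 to 63.4 in Healthy3, with a median of 40.9. The healthy range thus lay inside the DLBCL range. miR-499 made up 57.0% of the member reads in DLBCL3 (95% Wilson interval 56.3 to 57.8%) and 93.8% to 99.3% in the other DLBCL nodes, beside 89.2% to 97.7% in healthy nodes.

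miR-1 reads per miR-133c read were 39.99 in DLBCL3 and 28.5 in Healthy2, and lay between 5.91 and 11.9 in the other 8 libraries. By TMM-scaled CPM, DLBCL3 and Healthy2 were also the 2 libraries with the most miR-206. miR-1 reads per miR-206 read ran from 2.90 to 42.7 in DLBCL and from 2.02 to 23.4 in healthy nodes, highest in DLBCL5 and Healthy5. The 4 listed members together took from 0.0676% to 0.226% of the miRNA reads in DLBCL and from 0.0351% to 0.0674% in healthy nodes. On this unscaled share the groups did not overlap, as was so for 13.8% of the tested miRNAs taken singly (higher in DLBCL), but the lowest DLBCL library (DLBCL3, 95% Wilson interval 0.0666 to 0.0686%) and the highest healthy one (Healthy5, 0.0665 to 0.0683%) differed by less than counting error. Under TMM the summed member levels overlapped, from 675 to 3230 CPM in DLBCL and from 607 to 769 CPM in healthy nodes.

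**Figure D4:**
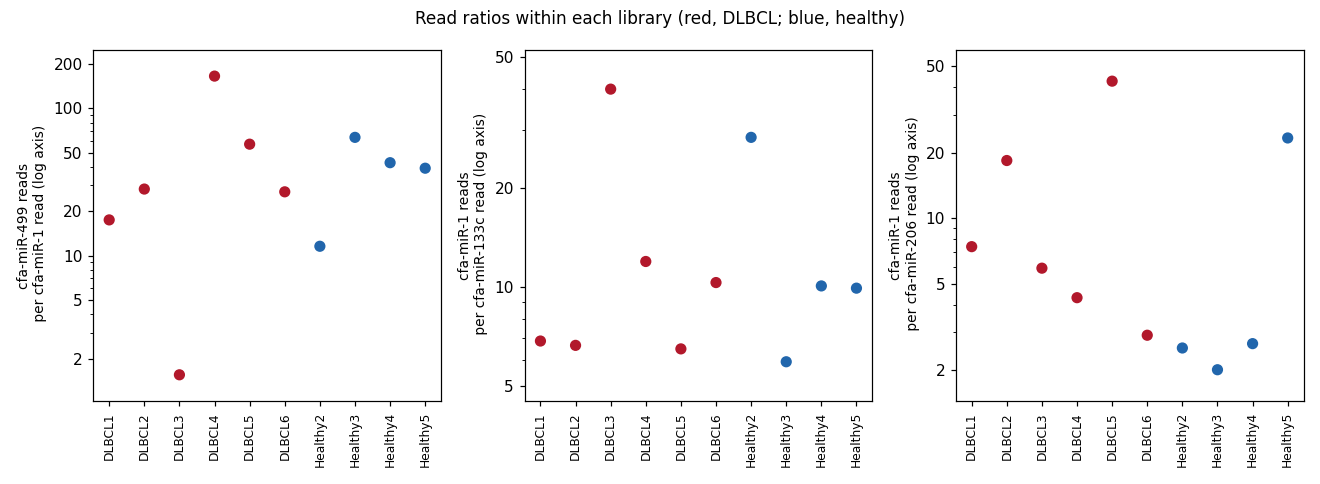
Read ratios in each library on log axes: miR-499 per miR-1, miR-1 per miR-133c and miR-1 per miR-206 (red, DLBCL; blue, healthy). DLBCL3 has the lowest miR-499 per miR-1 (1.55) and the highest miR-1 per miR-133c (39.99), with Healthy2 next in both panels (11.6 and 28.5).

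Other miRNAs of striated muscle gave a different picture from the peak of miR-1. miR-208a and miR-208b, which lie within the heart and slow muscle myosin genes MYH6 and MYH7, were at or near 0. miR-208a had 1 read in each of DLBCL6, Healthy4 and Healthy5 and 0 in the other libraries. miR-208b had 1, 3, 4, 1, 3 and 12 reads in DLBCL1 to DLBCL6, and 0, 0, 4 and 5 in Healthy2 to Healthy5. The summed level of miR-133c, miR-208a and miR-208b ran from 0.635 to 9.79 CPM in DLBCL and from 1.65 to 1.996 CPM in healthy nodes, with 0 of 1 tested miRNAs called.

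miRNAs that muscle shares with other cells included some that passed the test. Of miR-486, miR-486-3p, miR-378 and miR-22, all 4 were tested and 3 rose by the same edgeR test, all but miR-22, where 3.64% of all tested miRNAs were called higher. miR-486 and miR-486-3p come from 1 precursor and had nearly equal reads in every library. These 3 calls were lost without DLBCL1 and without any 1 of the 4 healthy libraries, although with 1 library left out the log2 fold change stayed at 1.48 or more for miR-378 and at 3.12 or more for miR-486 and miR-486-3p. With base quality as a covariate they were not called either, at 1.54 for miR-378, 1.84 for miR-486 and 1.81 for miR-486-3p. Nor were they called by edgeR with DESeq2's size factors (adjusted p = 0.0511 for all 3) or with the replicate number as a block. In the study's RT-qPCR, miR-378a-3p did not differ significantly between the groups after adjustment. Within the lower base quality group all 3 were called, where 46 of the 259 miRNAs tested there were called. The values were 1.53 for miR-378, 1.83 for miR-486 and 1.80 for miR-486-3p (adjusted p = 0.0229, 0.0345 and 0.0362 with edgeR). The list had a summed level of 4540 to 47219 CPM in DLBCL and 1865 to 2391 CPM in healthy nodes. miR-486, which red cells also hold in large amounts, had 17490 CPM in DLBCL3 and 340 to 1892 CPM in the other DLBCL nodes, beside 68.4 to 208 CPM in healthy nodes. Of the red cell miRNAs miR-451, miR-144 and miR-486, 2 of 3 rose, miR-451 and the miR-486 already counted. The call of miR-451 held with each of the 10 libraries left out. The summed level of these 3 was 5171 to 35566 CPM in DLBCL and 808 to 1070 CPM in healthy nodes. Their part in the levels of the muscle miRNAs was not tested.

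DLBCL3, the library highest in miR-1, was also the highest in miR-486 and miR-378 (12506 CPM), but not in miR-451 (14260 CPM, with 33751 CPM in DLBCL1). It was the lowest of all 10 in miR-145, a miRNA of smooth muscle and stroma, at 85.0 CPM against 364 to 1205 CPM in the others. Over the smooth muscle and stroma list (miR-143, miR-145, miR-199 and miR-214), 0 of 4 were called, and the sum ran from 18704 to 70595 CPM in DLBCL and from 26787 to 55170 CPM in healthy nodes. The lists for liver (miR-122), pancreas (miR-216a, miR-216b, miR-217 and miR-375) and nerve (miR-124 and miR-9) had 0 called miRNAs of 1, 4 and 1 tested. Their summed levels still differed in range. The liver list had 0.753 to 11.1 CPM in DLBCL and 0.257 to 2.28 CPM in healthy nodes. The sum of the pancreas list did not overlap, with 32.6 to 663 CPM in DLBCL and 916 to 1951 CPM in healthy nodes. Its miRNAs did not all go the same way. By edgeR the log2 fold change was -2.57 for miR-216a, -2.84 for miR-216b, -3.16 for miR-217 and 2.04 for miR-375. The groups overlapped for miR-375 only. The share of all tested miRNAs lying wholly lower in DLBCL was not counted, so this non-overlap has no background beside it. The nerve list had 12.98 to 1854 CPM in DLBCL and 58.8 to 97.0 CPM in healthy nodes.

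The miRNAs whose log2 CPM followed each member most closely were named by the highest Pearson's r over the 10 libraries among 244 other tested miRNAs, as a description. For miR-1 these were miR-212 (r = 0.91), miR-1841 (r = 0.88) and miR-1844 (r = 0.87). For miR-206 they were miR-197 (r = 0.85), miR-1844 (r = 0.76) and miR-140 (r = 0.70). For miR-499 they were miR-1307 (r = 0.79), miR-186 (r = 0.76) and miR-1843 (r = 0.70). miR-1844 appeared for both miR-1 and miR-206. The members were left out as candidates for each other, and miR-133c was kept as a candidate.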

How the data were processed

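Small RNA from 10 canine lymph nodes was sequenced from libraries made with an NEBNext small RNA kit. According to the methods and the submitters' processing notes, the authors mapped trimmed reads to CanFam3.1 with Bowtie 0.12.9 and counted miRBase miRNAs with miRDeep2. The authors deposited raw read counts for 320 miRNAs without normalization, from which all results were computed. The deposited TPM values are counts scaled to 1000000 miRNA reads per library (largest difference 4.55e-05) and entered only alternatives. Counting on similar miRNAs was not repeated.

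DLBCL and healthy libraries, grouped by title, were compared with edgeR 4.0.16 in R 4.3.3 (TMM, default filter by group, quasi-likelihood test, Benjamini-Hochberg adjustment over 247 miRNAs). The biological coefficient of variation was 0.731. The study's tool, DESeq2, was run as an alternative (version 1.42.0), and limma 3.58.1 served for limma-voom and for the TPM values. CPM used TMM-adjusted sizes, and log2 CPM a prior count of 2. Single miRNAs were also tested by exact permutation over 210 assignments, and correlations by 100000 permutations or, for 6 libraries, by all 720 pairings. Intervals and floors (3 reads) cover counting error only.

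On simulated counts with this design, 43.0% of miRNAs changed by 2 on the log2 scale and 83.0% of those changed by 3 were called. The replicate numbers of DLBCL and healthy libraries did not pair them (correlation of deviations 0.26, -0.01, -0.30 and -0.33 for numbers 2 to 5). No 2 libraries of a group agreed within sampling noise. The members were taken by name, but members, lists and tests were all chosen with earlier results of these data known, and named miRNAs are the members, their relatives, the listed markers and the 3 miRNAs most alike each member. The miRNAs' sequences were not used here.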

Additional observations from a re-analysis of the deposited data

Results flagged for a closer look

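In the 6 DLBCL nodes, 1 library stood far above the rest for each of 3 muscle miRNAs on the CPM scale. miR-1 was 301 CPM in DLBCL3, miR-206 was 51.0 CPM in the same library, and miR-499 was 3172 CPM in DLBCL5. In each case the gap to the next library, as a share of the group's whole range, exceeded Dixon's 95% critical value. Of 10 such checks on CPM, 3 passed, and 0 passed on the log2 scale. The nominal rate of 1 in 20 assumes normally distributed values and independent checks. CPM of related miRNAs in the same libraries need not meet that, so the 3 flags are a description only. DLBCL3 and DLBCL5 both belonged to the higher base quality group.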

How the results depend on the processing

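No member was called under any of the 24 alternatives. miR-499 kept its direction in all of them (log2 fold change 0.41 to 1.147 with 1 library left out, 0.49 to 1.505 otherwise). With 1 library left out, miR-1 ran from 0.65 to 2.65, miR-206 from -0.88 (without DLBCL3) to 1.73, miR-133b from 1.71 to 3.18, miR-133c from 1.46 to 2.003, and the sums of miR-1 with miR-206 and of the miR-133 miRNAs from 0.39 to 2.53 and from 1.47 to 1.94. With base quality as a covariate and within the lower base quality group, respectively, the log2 fold change was -0.63 and -0.64 for miR-1, -0.75 and -0.75 for miR-206, -0.14 and -0.0015 for miR-133b, -0.22 and -0.22 for miR-133c, -0.66 and -0.67 for the miR-1 sum, and -0.22 and -0.22 for the miR-133 sum. As every library of higher base quality was DLBCL, both settings draw the group difference from the same 2 DLBCL and 4 healthy libraries. Their near-equal values are therefore not separate checks. Both settings used TMM, and neither was run with read totals. By TPM, miR-1 was 12.5 in DLBCL4 and 48.2 in DLBCL6, beside 8.64 to 27.1 in healthy nodes. miR-206 was 2.90 TPM in DLBCL4 and 16.6 TPM in DLBCL6, beside 0.716 to 10.7 TPM in healthy nodes. The sign of these fits without TMM was thus not tested. miR-206 was also -0.29 with limma-voom. The replicate block called 0 members, with log2 fold changes of 0.94 for miR-1, -0.42 for miR-206 and 0.75 for miR-499, and it lowered the calls over all miRNAs from 14 to 1. The cause of these changes was not tested.

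The count of all called miRNAs was 8 with DESeq2's size factors, 23 with read totals, 38 with DESeq2 (45 without its Cook filter, which gave miR-206 no p-value), 46 with limma-voom, 24 with limma-trend on log2(TPM + 0.1), 7 with the quality covariate, 46 within the lower base quality group, and 1 (without Healthy4) to 23 (without DLBCL4) with 1 library left out. The other 8 alternatives gave counts within 1.5 times 14.

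With 1 library left out, r over the remaining 9 was 0.75 to 0.86 for miR-1 with miR-133c (adjusted p = 0.0747 by permutation without DLBCL4), 0.86 to 0.92 for miR-133b with miR-133c, 0.36 to 0.77 for miR-1 with miR-206 (adjusted p = 0.0488 by permutation without DLBCL5), and -0.39 to 0.37 for miR-1 with miR-499. Without the 2 libraries farthest in miR-1, r for miR-1 with miR-499 was 0.59 over the other 8 libraries and 0.71 over 4 DLBCL nodes, where miR-1 with miR-206 had -0.0352. With read totals, miR-133b with miR-133c in DLBCL had r = 0.96 (exact permutation, adjusted p = 0.153). The correlations within the lower base quality group were chosen after seeing the data.

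A miR-133b level of at most 9 reads per library limits every statement on it.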
